A study of Ulmus minor with 54 samples.

Results

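The comparison described here asked which transcripts normally present in elm leaves had changed 1 h after simulated egg deposition. The leaves came from wild-type trees of the field elm, Ulmus minor, which had been grown in a greenhouse from shoots of one clonal in vitro culture. In the treated leaves (P) a strip of epidermis had been scraped away and the wound covered with oviduct secretion from gravid females of the elm leaf beetle, while the untreated leaves (C) were neither scratched nor given secretion. The wound and the secretion therefore cannot be told apart, and no eggs or larvae were present in either group. At 1 h there were 3 libraries of P and 3 of C, 6 of the 54 libraries of the series. The labels do not say whether the 3 libraries of a group came from separate trees, so the p-values measure only the spread between these libraries, which may be technical.

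Results from the other libraries serve here to follow the transcripts that changed at 1 h. P and C leaves were also harvested at 6 and 24 h, with 3 libraries per group. A second set of 36 triggering libraries was started 7 days after the simulated eggs and held untreated leaves (CC), leaves with simulated eggs only (PC), leaves with 5 neonate larvae only (CT), and leaves with simulated eggs followed by 5 larvae (PT), each at 1, 6 and 24 h.

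Plants perceive insect eggs through contact with secretions and, in many cases, through the wound the female makes before she lays. Elm leaf beetles chew the leaf before they attach their eggs, and elm leaves bearing such eggs are known to release odours that attract a wasp parasitising the eggs. Within an hour of wounding, leaves generally raise transcripts of jasmonate synthesis and signalling, transcription factors and calcium-related proteins. The sequences of this table carry assembly identifiers only, so none of the transcripts below can be assigned to these classes, and the leaf identity of the samples could not be checked against marker genes.

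A transcript was called leaf-expressed when its median over the 18 untreated libraries (9 C and 9 CC) was at least 0.5 counts-per-million (CPM) of the library total. This rule kept 71158 of the 237477 assembled sequences, all of which passed the filter on low counts, and it left out sequences near 0 in untreated leaves. The 3 C libraries of 1 h entered both the rule and the comparison. Likewise, the 9 CC libraries entered both the rule and the comparisons of CT or PC with CC. Because 1 gene can be split over several assembled sequences, counts of transcripts are not counts of genes. The samples are bulk tissue, in which fewer cells of a type and less RNA per cell cannot be told apart.

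The 6 libraries held between 35329195 and 52765622 counted reads, a narrow range beside that of the 18 priming libraries (28916592 to 93878963). CT 24 h replicate 1 was the shallowest library of the series, with 14667334 reads. Its 10 most abundant sequences took 80.3% of these reads, and counts of risers called by edgeR in the feeding comparisons are given with and without it. No 2 libraries of a group held the same counts.

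Most leaf-expressed transcripts differed little between P and C at 1 h. Their median log2 fold change was -0.01, the middle 50% lay between -0.19 and 0.20, and 49.2% of the values were above 0. With edgeR's quasi-likelihood test at an adjusted p of at most 0.05, 57 of the 71158 leaf-expressed transcripts rose, or 0.0801%, and 1 fell, or 0.00141%. Over all 126737 transcripts tested, 137 rose (0.108%) and 2 fell (0.00158%), so 81 of the 139 calls lay outside the level rule. With an unadjusted p not above 0.05, 3264 leaf-expressed transcripts were higher and 1581 lower in P.

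The number called varied with the test and with the libraries in the fit. DESeq2's Wald test called 646 leaf-expressed transcripts higher (0.908%) and 53 lower (0.0745%), among them all 58 of the edgeR calls. Leaving out C replicate 1, 2 or 3 of 1 h left 0 calls in edgeR each time, with 4317, 4183 and 3986 transcripts with an unadjusted p not above 0.05. Without P replicate 1 there were 17 calls, of which 15 were among the 58, and without P replicate 3 there were 124. Leaving out C 6 h replicate 1, a library of neither group compared, gave 136. In every alternative fit of the 1 h comparison across priming libraries, the median log2 fold change of the 57 risers stayed between 2.22 and 2.76. All 57 values were positive in each fit. The risers had been chosen as higher in these same libraries, so their sign was largely set in advance and is no separate support.

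**Figure D1:**
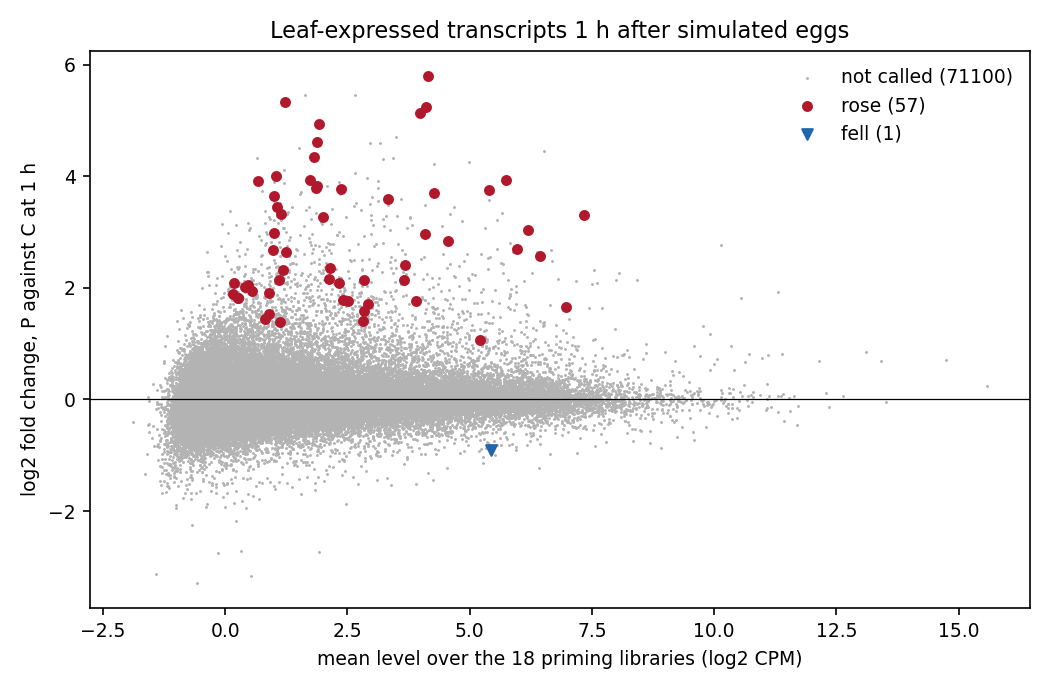
Each point is 1 of the 71158 leaf-expressed transcripts, with its mean level over the 18 priming libraries (log2 CPM) on the x axis and its log2 fold change between 3 P and 3 C libraries at 1 h on the y axis. The 57 transcripts that rose (red circles) lie between 1.07 and 5.80, and the 1 that fell (blue triangle) lies at -0.91. Grey points with equally large changes did not pass the test.

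**Figure D2:**
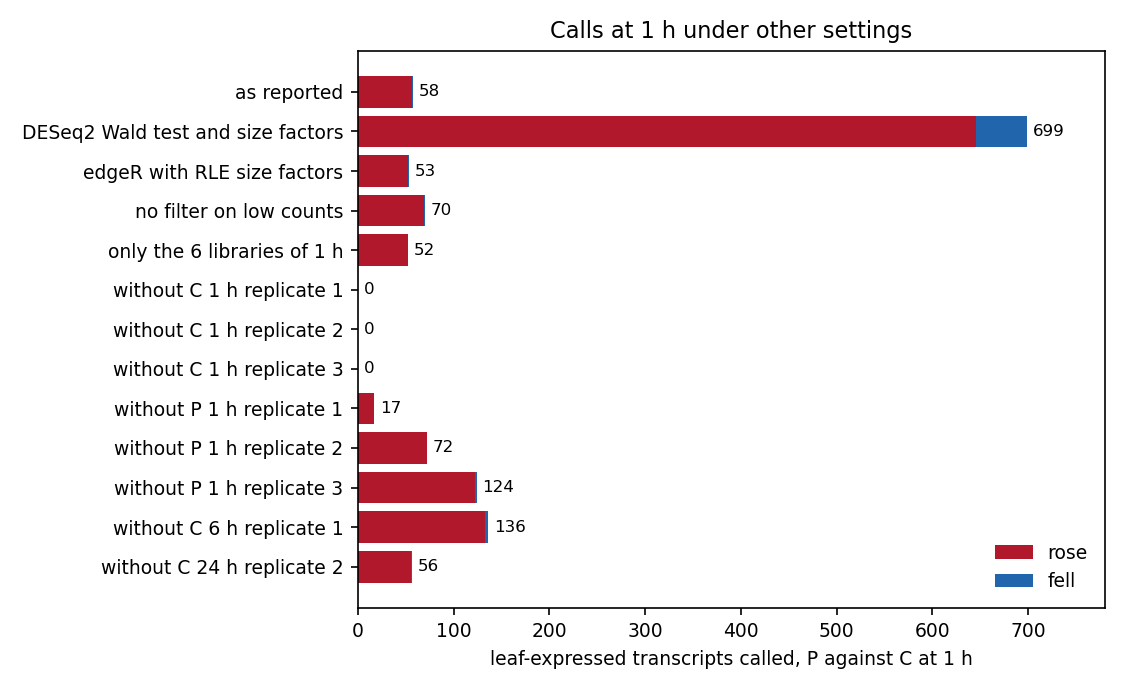
Bars give the number of leaf-expressed transcripts called in P against C at 1 h, split into rose (red) and fell (blue), as reported and under other settings. The count is 58 as reported, 699 with DESeq2 and 0 without any single C library of 1 h.

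A count without a model gives the direction that single libraries share. In 4714 leaf-expressed transcripts (6.62%) all 3 P values at 1 h lay above all 3 C values, and in 4156 (5.84%) all 3 lay below. Over all transcripts tested, these shares were 7.28% and 5.28%. The split depends on the scaling. With library totals in place of scaling by the trimmed mean of M values (TMM), 2844 lay above and 6629 below, so the share above fell from 53.1% to 30.02%, while the median log2 ratio of leaf-expressed transcripts moved from -0.01 to -0.10. Among transcripts without overlap that differed at least 2-fold in mean level, increases outnumbered decreases with either scaling. There were 1158 above and 125 below with TMM, and 930 above and 192 below with library totals. At 4-fold or more the counts were 289 above and 1 below with TMM, and 245 and 4 with library totals. All 57 risers lay above without overlap under both scalings, with a median log2 ratio of means of 2.56 and 2.41, respectively. They had been chosen as higher in these same libraries.

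The 57 risers had log2 fold changes from 1.07 to 5.80 with a median of 2.65. Of them, 41 were at least 4-fold higher, 23 at least 8-fold and 8 at least 16-fold. Their mean level in C leaves at 1 h ranged from 0.135 to 75.5 CPM (median 1.19), and in P leaves from 1.75 to 433 CPM (median 10.7). The riser with the fewest reads in C had 17 over the 3 libraries, and the one with the fewest in P had 241, so no call rested on a handful of reads in P. Sequences whose names begin with scaffold, rather than C, made up 28 of the 57 (49.1%) against 22.8% of leaf-expressed transcripts. Levels are not compared between transcripts, since sequence lengths were not used here.

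The riser with the smallest p was scaffold12122. Its level was 1.70, 2.81 and 2.41 CPM in the 3 C libraries and 31.9, 29.3 and 22.5 CPM in the 3 P libraries, or 2.31 ± 0.561 against 27.9 ± 4.84 CPM (SD, n = 3 each). The lowest P library was thus more than 8-fold above the highest C library. The log2 fold change was 3.60 with an SE of 0.47 and an adjusted p of 0.0132 (edgeR).

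The other named riser, scaffold23478, changed less but with a similarly small spread. It stood at 6.09, 5.51 and 7.07 CPM in C and at 22.2, 21.3 and 12.9 CPM in P, with no overlap between the groups. Its log2 fold change was 1.59 with an SE of 0.21 and an adjusted p of 0.0132 in edgeR. P replicate 3 was the lowest of the treated libraries for both transcripts. Without any one of the 3 C libraries, the adjusted p was between 0.0996 and 0.190 for scaffold12122 and between 0.112 and 0.190 for scaffold23478. The call of scaffold23478 was also lost with the 6 libraries of 1 h alone, with an adjusted p of 0.0610 in edgeR.

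Among the risers, the largest fold change belonged to scaffold24113 and the smallest to scaffold10019, both named here for their place in the range after their values were seen. The level of scaffold24113 was 0.954, 1.55 and 0.748 CPM in C and 141, 11.2 and 27.5 CPM in P, a log2 fold change of 5.80 with an SE of 0.95. P replicate 1 alone accounted for most of the summed level of this transcript in treated leaves. In contrast, scaffold10019 stood at 20.4, 30.8 and 33.4 CPM in C and at 62.2, 53.6 and 61.1 CPM in P, a log2 fold change of 1.07 with an SE of 0.17. Its treated libraries were close to one another and all lay above the untreated ones.

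The single transcript that fell was scaffold197. It was at 61.6, 62.8 and 61.1 CPM in the C libraries of 1 h and at 35.7, 30.2 and 32.6 CPM in the P libraries, a log2 fold change of -0.91 with an SE of 0.15 and an adjusted p of 0.0306 in edgeR. The C values lay within 2 CPM of each other and the P values lay well below them. In untreated leaves of 6 h its level was 26, 31.1 and 30.04 CPM, lower than or close to the treated leaves of 1 h, and by 24 h it was again at 71.4, 55.7 and 66.2 CPM. The call was lost without any single library of 1 h and in a fit of the 6 libraries alone, with an adjusted p between 0.0574 and 0.238.

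The treated libraries did not respond to the same extent. P replicate 1 held the highest of the 3 P values for 47 of the 57 risers and P replicate 2 for 10, against 38.97% of all leaf-expressed transcripts that were highest in replicate 1. The ratio of replicate 1 to the mean of the other 2 was 1.77 in the median riser and 0.990 in the median leaf-expressed transcript. It grew with the size of the response, from a median of 1.36 in the 16 risers under 4-fold through 2.14 in the 33 of 4-fold to under 16-fold to 4.83 in the 8 of at least 16-fold. Because fold size and this ratio both use the value of replicate 1, their relation is a description only. The summed level of the 57 risers was 281, 400 and 312 CPM in C and 3608, 1743 and 1376 CPM in P at 1 h. Each of the P libraries exceeded the highest C library by more than 3-fold, and P replicate 1 exceeded the other P libraries by more than 2-fold. That the P and C sums stood apart was set by choosing the risers from these same libraries.

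The level rule cut through transcripts with like responses. Just inside it were C371311, with an untreated median of 0.503 CPM and a log2 fold change of 2.09, and C502329, with 0.514 CPM and 1.82. Just outside were C576901, with 0.490 CPM and 1.96, and C401547, with 0.463 CPM and 2.74. These are the 2 called transcripts nearest to the threshold on each side.

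The later harvests show how the 57 risers stood in libraries of neither group compared at 1 h. These libraries shared the fit and its estimate of the spread, so the calls at 1 h depended on them in part. They are therefore not a fully separate view of the risers. At 6 h, 1 of the 57 was called again in P against C, where 8 of all leaf-expressed transcripts (0.0112%) had been called higher. DESeq2 called 10 of the 57 again, beside 145 leaf-expressed transcripts (0.204%). The log2 fold change at 6 h was above 0 for 54 of the 57, with a median of 0.83. At least 2-fold higher were 21 risers, beside 850 leaf-expressed transcripts. The 3 P values lay above the 3 C values for 31 risers at 6 h, whereas 7.05% of leaf-expressed transcripts did so. At 24 h, 0 of the 57 were called by either edgeR or DESeq2. Of all leaf-expressed transcripts, edgeR called 4 higher at 24 h (0.00562%) and DESeq2 83 (0.117%). The count of 0 therefore does not set the risers apart. With an unadjusted p not above 0.05 in edgeR, 19 risers were higher at 24 h, beside 1897 leaf-expressed transcripts. There, 52 of the 57 values were above 0, the median was 0.66, and 13 risers lay above C without overlap, beside 3.24% of leaf-expressed transcripts.

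The size of the later difference varied among the risers. At both 6 and 24 h, 9 of the 57 were at least 2-fold higher in P. A further 12 were so at 6 h only, 10 at 24 h only, and 26 at neither time. Smaller values at later times are in part set by choosing transcripts for their value at 1 h, so the change between times was tested only over all leaf-expressed transcripts. In edgeR, 0 had a P against C difference at 6 or 24 h that differed from that at 1 h, with 3100 (6 h) and 2233 (24 h) with an unadjusted p not above 0.05. DESeq2 called 31.

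The riser called again at 6 h was C334647. Its level was 0.446, 0.534 and 0.342 CPM in C and 2.40, 1.63 and 1.49 CPM in P at 1 h, a log2 fold change of 2.05 with an SE of 0.35 and an adjusted p of 0.0345 in edgeR. At 6 h it was 0.80, 0.359 and 0.515 CPM in C and 4.85, 3.89 and 2.24 CPM in P, a log2 fold change of 2.77 with an SE of 0.35 and an adjusted p of 0.0216. At neither time did the groups overlap, and the treated leaves of 6 h reached higher values than those of 1 h. By 24 h the P libraries, at 0.969, 0.794 and 0.927 CPM, lay among the C libraries, at 0.491, 1.00 and 0.673 CPM.

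Other named transcripts followed different courses. At 6 h, scaffold12122 was at 7.96, 2.58 and 2.64 CPM in C and 16.96, 12.6 and 12.8 CPM in P, still without overlap, with a log2 difference of 1.71 and an adjusted p of 0.410 in edgeR. At 24 h the groups overlapped, with 2.54, 7.65 and 2.80 CPM in C and 8.48, 5.20 and 7.09 CPM in P. The levels of scaffold23478 at 6 h were 2.58, 2.82 and 2.66 CPM in C and 3.404, 2.28 and 3.51 CPM in P, so both groups were below the untreated leaves of 1 h and overlapped. For scaffold24113 the P libraries of 24 h were at 71.8, 10.7 and 14.1 CPM against 2.72, 5.09 and 1.96 CPM in C, with no overlap, a log2 difference of 3.29 and an adjusted p of 0.225 in edgeR.

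**Figure D3:**
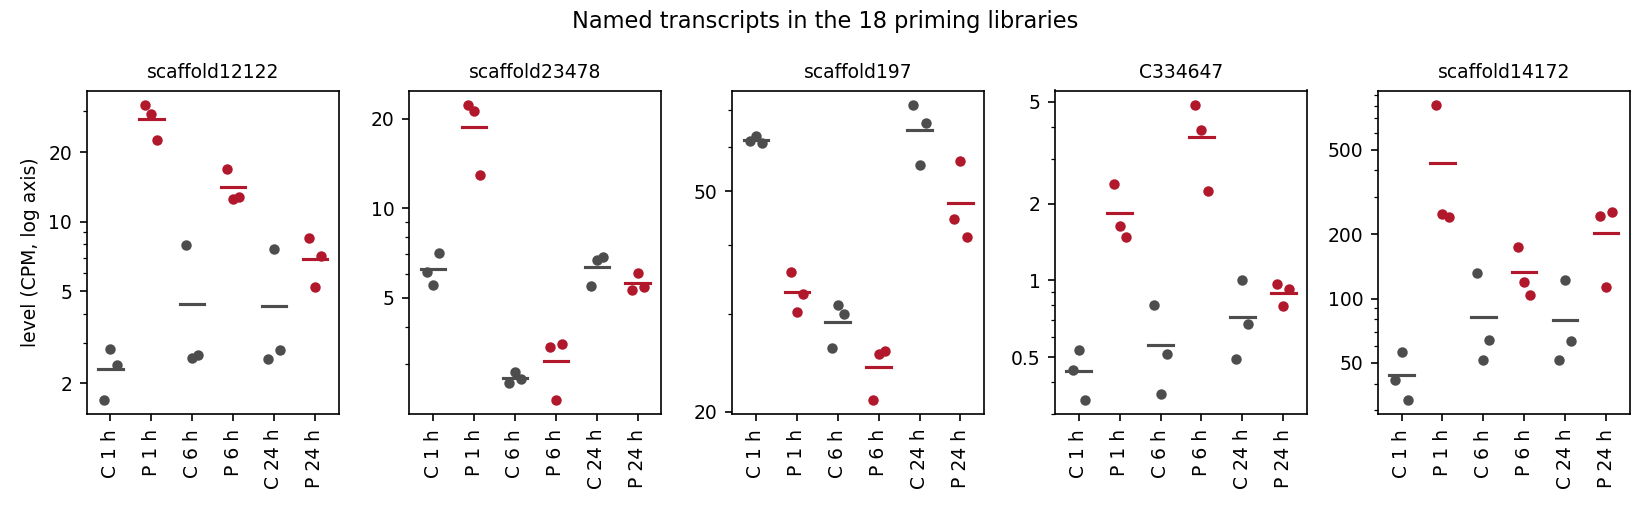
Points are the levels (CPM, log axis) of 5 named transcripts in each of the 18 priming libraries, C in grey and P in red, and horizontal lines are group means. At 1 h the C and P libraries do not overlap in any of the 5 panels. At 24 h they overlap for scaffold12122, scaffold23478, scaffold197, C334647 and scaffold14172.

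Part of the later difference turned on single untreated libraries. The summed level of the risers was 718, 376 and 417 CPM in C at 6 h, with replicate 1 apart from the other 2, and 1250, 1051 and 1110 CPM in P. At 24 h it was 362, 683 and 421 CPM in C, with replicate 2 apart, and 1126, 574 and 884 CPM in P, so the groups overlapped. In a fit without C 6 h replicate 1, chosen after seeing the data, 3 of the 57 and 21 of all leaf-expressed transcripts were called higher at 6 h in edgeR and the median log2 fold change was 1.01. In a fit without C 24 h replicate 2, also chosen after seeing the data, edgeR called 0 risers and 0 leaf-expressed transcripts at 24 h. There, 25 risers had an unadjusted p not above 0.05, and the median was 0.96. In 45 of the 57, every P library of 1 h exceeded all 9 C libraries of the 3 times, and in 12 some untreated library reached the level of treated leaves at 1 h. P libraries of 1 h exceeded all 9 C libraries in 1.18% of leaf-expressed transcripts, but the risers had been chosen for high values in P at 1 h, so nothing is read from this count.

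In untreated leaves of the second set, CC at 6 h against CC at 1 h, edgeR called 2705 leaf-expressed transcripts (3.80%) in either direction. Of these, 4 were among the 58. By direction, 828 leaf-expressed transcripts were higher and 1877 lower, with 3 of the 57 risers higher and 0 lower. Nothing more is read from such small counts. The risers C181817, scaffold22190 and C346417 were higher at 6 h, by log2 values of 2.48, 2.19 and 2.17, and scaffold197 was lower, with a log2 fold change of -1.03 and an adjusted p of 0.0256. These 3 risers were named because of this count, after their values were seen. In the priming set, scaffold22190 was at 3.57, 2.98 and 4.14 CPM in C and 24.8, 12.6 and 9.72 CPM in P at 1 h, but at 19.2, 17.5 and 15.7 CPM in C at 6 h. Untreated leaves of 6 h thus overlapped with treated leaves of 1 h for this transcript.

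Larval feeding was measured in libraries that share no sample with the 1 h comparison of the priming set, which makes them a separate view of the 57 risers. CT against CC and PT against PC share no libraries with each other either. However, they came from the same fit of the 36 triggering libraries and shared its estimate of the spread. Calls in either comparison therefore depended in part on libraries outside it. At 1 h of feeding, 54 (CT against CC) and 39 (PT against PC) of the 57 risers were higher with an unadjusted p not above 0.05 in edgeR. Among leaf-expressed transcripts 2592 and 2306 were. By adjusted p, neither comparison called any leaf-expressed transcript in edgeR (0% each). These zeros turned on single libraries. Without CT 24 h replicate 1, edgeR called 7 leaf-expressed transcripts higher in CT against CC, 1 of them a riser, and 48 higher and 54 lower in PT against PC, 2 of them risers. Without PC 1 h replicate 1, left out after seeing the data, it called 57 higher in CT against CC, 11 of them risers, and 232 higher and 46 lower in PT against PC, 24 of them risers. With all libraries, DESeq2 called 22 of the 57 higher in CT against CC, beside 224 leaf-expressed transcripts (0.315%), and 10 in PT against PC, beside 262 (0.368%). The log2 fold change was above 0 for 57 of 57 risers in CT against CC, with a median of 1.80, and for 55 in PT against PC, with a median of 1.34. Over all leaf-expressed transcripts, 45.3% and 42.8% of values were above 0 and the medians were -0.04 and -0.06.

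When fed leaves of both kinds were compared with unfed leaves at 1 h, as the mean of the 2 feeding differences, edgeR called 33 of the 57 risers higher. Among leaf-expressed transcripts, 606 (0.852%) were called higher and 245 (0.344%) lower, beside 33 of the 57 risers. Without CT 24 h replicate 1 the counts were 1148 higher and 1029 lower, with 39 risers called, and with DESeq2 they were 1392 higher and 888 lower, with 42 risers called. All 57 values were above 0 in this comparison, with a median of 1.52, and scaffold197 was lower, with a log2 fold change of -0.73 and an adjusted p of 0.0378 in edgeR.

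After longer feeding more risers were called higher in edgeR. At 6 h there were 27 of 57 in CT against CC, where 0.652% of leaf-expressed transcripts were called higher, and 29 in PT against PC, where 0.766% were. At 24 h there were 43 in CT against CC and 42 in PT against PC, beside 4.95% and 4.33% of leaf-expressed transcripts. No riser was called lower at 24 h, although 10.0% of leaf-expressed transcripts were called lower in CT against CC and 5.22% in PT against PC. Without CT 24 h replicate 1, 30 and 34 of the risers were called higher at 6 h, beside 716 and 1091 leaf-expressed transcripts. At 24 h, 39 and 44 risers were in that fit, beside 4295 and 4808 leaf-expressed transcripts. It called 0 risers lower at 24 h. Of leaf-expressed transcripts it called 5583 lower in CT against CC and 6325 in PT against PC, where all libraries gave 7149 and 3713. With all libraries, the median log2 fold change of the risers was 2.13 and 1.97 at 6 h and 2.51 and 2.43 at 24 h, in the same order.

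**Figure D4:**
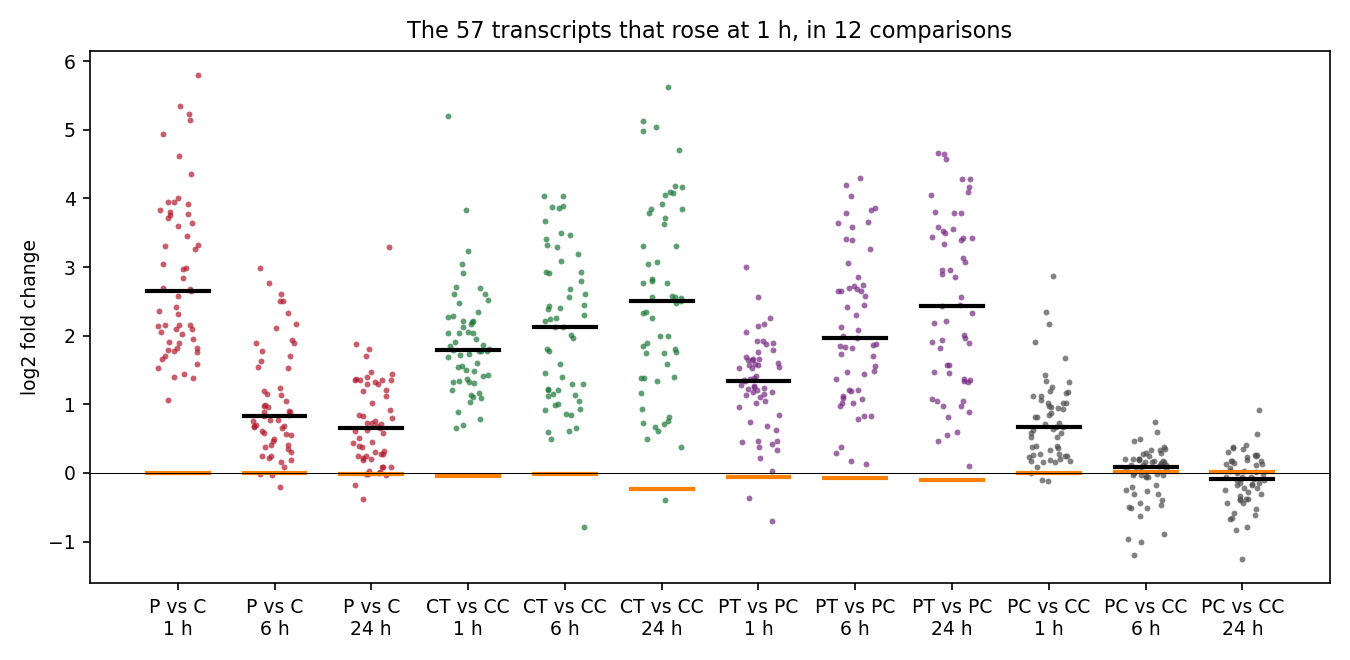
Each point is the log2 fold change of 1 of the 57 transcripts that rose in P against C at 1 h, in 12 comparisons, with the median of the 57 as a black line and the median of all leaf-expressed transcripts in orange. The first column was used to choose the transcripts. The median of the 57 was 2.65 there, 0.83 and 0.66 at the later P against C harvests, and between 1.34 and 2.51 in the 6 feeding comparisons.

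In both feeding comparisons at once, 0 risers were called at 1 h, 22 at 6 h and 39 at 24 h. Because the comparisons shared a fit and its estimate of the spread, their calls are not fully separate. Among all leaf-expressed transcripts 0% were called higher in both at 1 h, 0.367% at 6 h and 2.73% at 24 h. Without CT 24 h replicate 1 the numbers of risers were 0, 26 and 39, and without PC 1 h replicate 1 they were 11, 30 and 40. The shares of leaf-expressed transcripts called in both were not counted in these reduced fits. The largest of the 3 CT against CC values fell at 24 h for 33 of the 57, at 6 h for 13 and at 1 h for 11. In PT against PC they were 37, 16 and 4. For most risers the feeding difference was therefore largest at the last harvest, while the P against C difference had its median highest at the first, the one used to choose them.

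By the rule for feeding, C334647 and scaffold14172 were the risers named. In CC leaves of 24 h the level of C334647 was 0.435, 0.202 and 0.971 CPM, and in CT leaves it was 41.4, 15.7 and 20.4 CPM, the first from the shallow replicate 1. It was 0.462, 0.392 and 0.649 CPM in PC and 10.5, 9.85 and 17.4 CPM in PT at that hour, so fed and unfed leaves did not overlap in either comparison. The log2 fold changes in CT against CC were 1.77, 3.49 and 5.63 at 1, 6 and 24 h, with an adjusted p of 1.71e-07 in edgeR at 24 h. Without the shallow library the 24 h value was 5.14, with an adjusted p of 5.69e-07. In PT against PC they were 1.65, 4.19 and 4.67.

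The priming levels of scaffold14172 were 41.5, 56.6 and 33.7 CPM in C and 807, 250.5 and 240.5 CPM in P at 1 h, a log2 fold change of 3.30 with an SE of 0.53 and an adjusted p of 0.0239 in edgeR. P replicate 1 was more than 3-fold above the other P libraries, and the groups did not overlap. In CC leaves of 24 h it was at 50.6, 43.9 and 42.01 CPM and in CT leaves at 403, 918 and 751.5 CPM, while PC leaves had 40.9, 39.6 and 40.4 CPM and PT leaves 766, 611 and 795 CPM. The lowest CT value came from the shallow CT 24 h replicate 1. Its log2 fold changes rose over the harvests of feeding, from 2.04 through 2.26 to 3.93 in CT against CC and from 1.79 through 2.58 to 4.17 in PT against PC. The 1 h call of both transcripts was lost without P replicate 1 (adjusted p of 0.118 for C334647 and 0.0612 for scaffold14172 in edgeR) and with the 6 libraries of 1 h alone (0.0591 and 0.0601). It was also lost without any one C library of 1 h, with an adjusted p of 0.134 to 0.3199 for C334647 and 0.116 to 0.273 for scaffold14172.

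The riser with the smallest p in P against C, scaffold12122, showed the spread of feeding leaves at 1 h. It was at 1.58, 1.35 and 1.79 CPM in CC and at 3.41, 10.8 and 24.8 CPM in CT, and at 6.50, 1.96 and 1.86 CPM in PC and 21.2, 5.03 and 16.5 CPM in PT. Fed and unfed leaves overlapped in PT against PC because of 1 high PC library and 1 low PT library. At 24 h the values were 1.88, 1.80 and 1.64 CPM in CC and 10.4, 45.3 and 39.4 CPM in CT, and 1.83, 2.30 and 2.75 CPM in PC and 30.6, 32.5 and 31.9 CPM in PT, with no overlap.

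The single transcript that had fallen at 1 h, scaffold197, was also called lower after 24 h of feeding. It was at 68.9, 62.6 and 56.2 CPM in CC and at 14.9, 27.02 and 30.8 CPM in CT, a log2 fold change of -1.35 with an adjusted p of 9.1e-04 in edgeR (-1.12 and 0.00473 without CT 24 h replicate 1). In PC it was at 67.4, 49.2 and 82.5 CPM and in PT at 29.9, 31.9 and 33.6 CPM, a log2 fold change of -1.06 with an adjusted p of 0.00899.

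Of the 57 risers, 47 were called higher in at least 1 of the 6 feeding comparisons and 10 in none. Of all leaf-expressed transcripts, 6.70% were called higher in at least 1. Without CT 24 h replicate 1, 45 of the risers were, and without PC 1 h replicate 1, 49. The matching shares of leaf-expressed transcripts were not counted in these reduced fits. Among the 10 was scaffold25554, singled out after its values were seen. Its feeding difference was largest at 1 h in both comparisons, as was that of scaffold10019, also 1 of the 10. The level of scaffold25554 was 1.39, 0.991 and 1.39 CPM in CC and 2.95, 7.25 and 7.38 CPM in CT at 1 h, and 3.61, 1.29 and 1.10 CPM in PC and 32.3, 9.42 and 6.57 CPM in PT. Fed and unfed leaves did not overlap in either comparison. The log2 differences were 2.22 and 3.01, with adjusted p of 0.117 and 0.0730 in edgeR. At 24 h they were 0.38 and 1.08, and the groups overlapped in CT against CC. In the mean of both feeding differences at 1 h scaffold25554 was called, with a log2 fold change of 2.61 and an adjusted p of 8.27e-04.

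**Figure D5:**
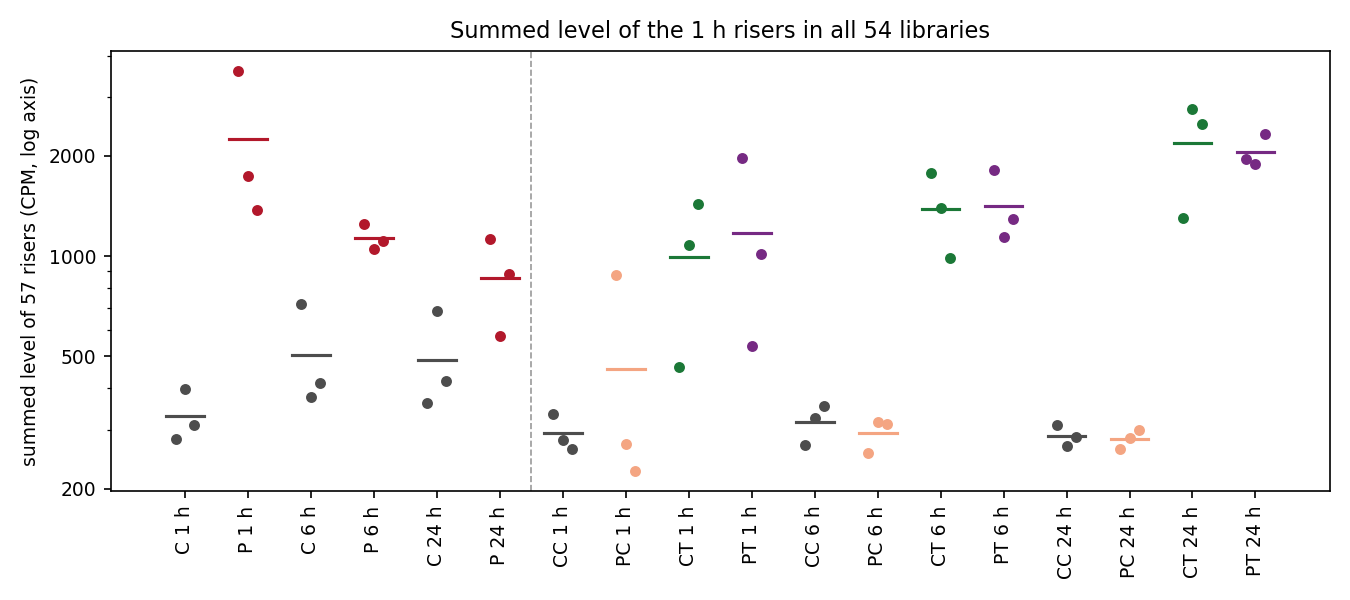
Points are the summed level (CPM, log axis) of the 57 risers in each of the 54 libraries, and horizontal lines are group means. The dashed line separates the priming set on the left from the triggering set on the right, which were scaled separately. Untreated CC leaves average 288 to 317 CPM, and fed leaves of 24 h average 2184 (CT) and 2060 (PT) CPM.

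The summed level of the 57 risers was followed library by library. In CC leaves it averaged 293 ± 38.4 CPM at 1 h, 317 ± 42.6 at 6 h and 288 ± 20.7 at 24 h (SD over 3 libraries). In CT leaves it was 463, 1078 and 1438 CPM at 1 h, 1385 ± 396 CPM at 6 h and 2184 ± 779 CPM at 24 h. In PT leaves it was 1966, 537 and 1013 CPM at 1 h, 1413 ± 352 CPM at 6 h and 2060 ± 241 CPM at 24 h. A few abundant transcripts weigh most in such a sum. The mean level of scaffold14172 alone went from 290.01 CPM at 6 h to 691 CPM at 24 h in CT, and from 276 to 724 CPM in PT. The median over the 57 risers of the log2 level (CPM plus 0.1) relative to the mean of the 9 CC libraries, which weighs each riser equally, was 1.99, 1.82 and 2.08 in PT at 6 h and 1.75, 2.15 and 2.34 at 24 h, with overlap between the hours. In CT it was 2.34, 2.16 and 1.61 at 6 h and 1.52, 2.58 and 2.46 at 24 h, again with overlap. By the sum, libraries of leaves fed for 1 h differed among themselves by more than 3-fold in both groups.

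Leaves that had received simulated eggs 7 days earlier and no larvae (PC) were compared with untreated leaves (CC). In edgeR, 0 of the 58 transcripts were called at 1, 6 or 24 h, and DESeq2 also called 0 of them. Over all leaf-expressed transcripts edgeR likewise called 0 (0%) at each hour, and DESeq2 called 3 higher at 1 h (0.00422%), 1 at 6 h (0.00141%) and 0 at 24 h, so the count of 0 does not set the 58 apart. With an unadjusted p not above 0.05 in edgeR, 11 risers were higher at 1 h, beside 738 leaf-expressed transcripts, 0 at 6 h and 0 at 24 h. The harvest at 1 h turned on 1 library. The summed level of the risers in PC was 877 CPM in replicate 1, and 272 and 226 CPM in replicates 2 and 3. With all libraries, 55 of the 57 log2 differences were above 0 with a median of 0.67, and without PC 1 h replicate 1, left out after seeing the data, 16 were above 0 with a median of -0.20. At 6 h the sum averaged 295 ± 34.1 CPM and at 24 h 282 ± 18.8 CPM, with 33 and 24 of the 57 above 0 and medians of 0.08 and -0.08. PC 1 h replicate 1 also entered the feeding comparison. Without it, edgeR called 24 risers higher in PT against PC at 1 h, with a median of 2.04, and 11 in CT against CC.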

How the data were processed

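Raw counts of reads, as the authors deposited them, cover 237477 assembled sequences in 54 polyadenylated-RNA leaf libraries in 18 groups of 3. The submitters' processing notes name CASAVA and Trimmomatic 0.33. For the assembly, aligner, counter and strand setting, details were not given in the sources used here, so overlapping, antisense and near-identical sequences may share reads. Columns were matched to libraries by the labels, and 0 columns were left out. All 18 priming libraries were fitted together with edgeR 4.0.16 in R 4.3.3 (filterByExpr with minimum count 10 and minimum total 15, TMM scaling, 1 mean per group, glmQLFit and glmQLFTest), and the 36 triggering libraries likewise. This left 126737 and 147417 transcripts. Calls required an adjusted p (Benjamini-Hochberg, across every tested transcript of a comparison) not above 0.05. SEs are the log2 fold change over the square root of F. Levels are CPM over TMM-scaled totals of each set, and the level rule uses CPM over library totals.

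Named transcripts are, among called ones without overlap, the 2 risers and 2 fallers with the smallest p at 1 h, up to 2 per direction called again at 6 or 24 h, and up to 2 per direction with the smallest p in CT against CC among those called in both feeding comparisons at that time. Others are said to be chosen after their values were seen. The comparison, the level rule and the lists were chosen with earlier results of these data known. Alternatives were DESeq2 1.42.0, RLE size factors, no filter, the 6 libraries alone, a replicate block, other level rules and fits without single libraries. The procedure was tested on simulated counts.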

Additional observations from a re-analysis of the deposited data

How the results depend on the processing

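Against 58 leaf-expressed transcripts called at 1 h as reported, DESeq2 called 699, and a median of at least 1 or 5 CPM in place of 0.5 kept 34 and 13. The count was 53 with RLE size factors, 70 without the filter, 52 with the 6 libraries alone (17 of them shared with the 58) and 54 with the level rule on TMM-scaled totals. Leaving out single libraries gave 0 to 136. The calls repeated at 6 or 24 h, 1 as reported, were 10 with DESeq2 and 0 to 3 without single libraries. The difference between times, 0 as reported, was 31 with DESeq2. The causes were not tested.

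Equal replicate numbers were not taken as a pairing, which the labels do not state and the data did not establish. Deviations from the group means correlated at 0.34, 0.32 and 0.05 for numbers 1, 2 and 3 at 1 h. With the replicate number as a block, 379 were called at 1 h (360 higher, 19 lower, all 58 among them) and 8 were called again later.

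Transcripts called in feeding numbered 48 as reported and 46 to 51 in the alternatives run. The PC against CC count stayed at 0 with DESeq2 and without CT 24 h replicate 1 or PC 1 h replicate 1. The 33 risers called in the mean feeding difference at 1 h became 42 with DESeq2, 39 without CT 24 h replicate 1 and 46 without PC 1 h replicate 1. Direction was kept for the 5 named transcripts in all 11 alternatives each. They had been chosen as called at 1 h in the same libraries, which largely set this outcome. Their calls were lost in 24 of these fits, all with fewer libraries. Depth limits the rarest risers, the lowest of which had 17 reads in the 3 C libraries.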
